A study of Mus musculus with 12 samples.

Results

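The transcripts described here are those of 10 microglial genes: the 3 chains of complement C1q (C1qa, C1qb and C1qc), the receptor Trem2 and its adaptor Tyrobp, the surface receptors Csf1r, Cx3cr1 and P2ry12, the lysosomal protein Cd68, and Aif1, which encodes the microglial marker Iba1. Their members were all probes of an expression array whose annotated symbol is one of these names in both deposited tables, which gave 13 probes of 10 genes among 25697 probes of 18097 genes. The arrays were made from the hippocampus and the cortex of male 3×TgAD mice, a model of Alzheimer's disease that carries mutant human amyloid precursor protein and tau transgenes under a neuronal Thy1 promoter together with a mutant presenilin 1 knock-in. All mice carried the same genotype, so no array came from a mouse without the transgenes. Treated mice received amitriptyline (AMI), a tricyclic antidepressant, at 100 µg per g of body weight in the drinking water from 14 months of age for 4 months, and vehicle mice drank plain water. Tissue was taken at 18 months, and 3 arrays were made per tissue and treatment, 12 in all. According to the study's methods, mice of both treatments were also injected with the thymidine analogue BrdU, and it is not stated which mouse gave which sample or whether both tissues came from the same mice.

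Microglia are the resident macrophages of the brain. They depend on signalling through the Csf1r receptor, survey the tissue with fine processes that carry the fractalkine receptor Cx3cr1 and the purinergic receptor P2ry12, and are the main source of C1q in the brain, the molecule that starts the classical complement cascade and tags synapses and debris for removal. Around amyloid plaques, microglia are known to lower P2ry12 and Cx3cr1 and to raise a programme that depends on Trem2, a lipid and lipoprotein receptor that signals through Tyrobp (DAP12). Cd68 is a glycoprotein of lysosomes and late endosomes that is widely used as a mark of phagocytic activity.

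All 12 arrays were made on the same bead chip design, and between 49.0% and 51.7% of the probes on each had a detection p of 0.05 or less. The number of arrays, 3 per group, and not read depth, sets the precision here. Where a spread is given below, it is the SD of 3 arrays or the SE or 95% interval of a fitted difference. Levels are given as z-normalized log2 signals: the log2 signals of an array were centred on their mean, divided by their SD and multiplied by the mean SD of all arrays, so that 0 marks the average probe of an array and a difference of 1 is about a doubling of signal. The level of one probe cannot be set against that of another, so only the same probe was compared between arrays. The SD of the log2 signals differed between the tissues, with overlap. It was between 1.51 and 1.85 on the hippocampal arrays and between 1.42 and 1.68 on the cortical ones. It was narrower on replicate 1 of both hippocampal groups, at 1.51 (AMI) and 1.53 (vehicle), than on the other 4 hippocampal arrays, where it was at least 1.71, and results that rest on those arrays are given with and without them. The hippocampal and cortical tables were exported by different software versions as separate projects, so tissue and table cannot be told apart.

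Of the 13 probes, 12 were detected on all 6 arrays of both tissues and were tested in every comparison. The remaining one, the Aif1 probe ILMN_1218123, was detected on 0 arrays, with signals from 52.4 to 72.8 and a lowest detection p of 0.162, and was not tested. Csf1r was measured by 2 tested probes and Aif1 by 2, and the probe with the highest mean signal stands for the gene. The 3 C1q chains are encoded side by side on chromosome 4, with 0 other protein-coding genes between them in the RefSeq annotation, and share a domain structure. The array sequences that read them are printed here because they are distinct for the 3 chains, and those of Tyrobp and Cd68 because Tyrobp had the largest tissue difference and Cd68 the smallest p for AMI among the members. Each probe is 50 bases long and lies in the exons of its gene, at positions that the array annotation gives without naming a genome build: C1qa at chr4:136452139-136452188, C1qb at chr4:136436367-136436416, C1qc at chr4:136446132-136446181 and Cd68 at chr11:69478360-69478409, all on the minus strand. The Tyrobp probe crosses an exon junction on the plus strand of chromosome 7, with 22 bases at chr7:31199648-31199669 and the rest, in capitals, at chr7:31200651-31200678.
C1qa probe: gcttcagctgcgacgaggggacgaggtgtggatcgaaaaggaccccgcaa
C1qb probe: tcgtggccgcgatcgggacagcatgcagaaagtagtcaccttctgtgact
C1qc probe: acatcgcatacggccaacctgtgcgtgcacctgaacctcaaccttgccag
Tyrobp probe: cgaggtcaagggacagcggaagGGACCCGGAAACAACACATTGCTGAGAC
Cd68 probe: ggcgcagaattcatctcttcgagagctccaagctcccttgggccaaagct
The longest run of bases that any pair of the C1q probes shares was 5 bases, and at most 17 of 50 bases matched in any ungapped alignment, so the probes share no long stretch of sequence.

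The upstream sequence of the C1q genes is shown because their signals rose and fell together across the arrays. RefSeq promoter windows on GRCm38.p6 matched 7 of the 10 genes, including C1qb and C1qc. The windows printed are the 250 bases before the annotated start of C1qb, chr4:136886201-136886450, and of C1qc, chr4:136892915-136893164, both on the minus strand. Capitals mark the purine-rich core GAGGAA of sites for PU.1, the ETS factor that defines the macrophage lineage, searched on both strands.
C1qb upstream: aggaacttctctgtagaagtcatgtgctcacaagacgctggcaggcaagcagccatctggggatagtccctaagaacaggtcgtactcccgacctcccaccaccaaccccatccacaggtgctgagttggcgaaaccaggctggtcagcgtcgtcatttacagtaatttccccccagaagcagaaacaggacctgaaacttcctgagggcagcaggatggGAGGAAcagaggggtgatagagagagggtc
C1qc upstream: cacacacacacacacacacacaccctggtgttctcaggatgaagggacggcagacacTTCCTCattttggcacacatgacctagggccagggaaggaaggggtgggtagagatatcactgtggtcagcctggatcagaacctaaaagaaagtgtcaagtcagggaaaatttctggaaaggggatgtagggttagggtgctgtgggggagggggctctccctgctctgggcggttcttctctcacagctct
The match in C1qb begins 30 bases before the start and that in C1qc 193 bases before it. GAGGAA was found in the windows of 5 of the 7 genes (C1qb, C1qc, Cd68, Aif1 and Trem2) and in 23.3% of all 32851 windows of this length. The AP-1 motif TGANTCA, also searched on both strands, was found in 2 of the 7 (Cd68 and Trem2) against 6.75% of all windows, and 0 of its matches overlapped one of GAGGAA. These matches are letters in a window and no measure of binding.

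For all 10 genes the mean level was higher on the hippocampal than on the cortical arrays, while within each tissue AMI and vehicle arrays overlapped for every gene but Cd68 in the cortex. C1qa, a chain of the C1q heterotrimer, stood at 0.67, 0.93 and 0.79 on the hippocampal vehicle arrays and at 0.50, 1.21 and 0.93 on the AMI arrays. In the cortex it stood at 0.50, 0.23 and 0.13 with vehicle and at 0.54, 0.48 and 0.24 with AMI. The hippocampal AMI group held both the lowest and the highest C1qa value of that tissue. C1qb stood at 2.28, 2.38 and 2.20 with vehicle and at 2.13, 2.60 and 2.65 with AMI in the hippocampus, and at 2.17, 1.97 and 1.71 with vehicle and at 2.35, 2.23 and 1.81 with AMI in the cortex. For C1qc the hippocampal values were 1.87, 2.43 and 2.08 with vehicle and 1.82, 2.74 and 2.70 with AMI, and the cortical values were 2.03, 1.85 and 1.73 with vehicle and 2.05, 2.17 and 1.73 with AMI. Replicate 1 of the hippocampal AMI group, one of the arrays with a narrow spread of signals, was the lowest AMI array for all 3 chains.

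Trem2, the receptor, was at 1.17, 1.18 and 0.79 on hippocampal vehicle arrays and at 0.90, 1.69 and 1.07 on AMI arrays. Cortical Trem2 was at 0.49, 0.37 and 0.29 with vehicle and at 0.09, 0.37 and 0.24 with AMI, so that every hippocampal array lay above every cortical one. Tyrobp, whose cytoplasmic motif recruits the kinase Syk, was at 0.63, 0.84 and 0.47 with vehicle and at 0.59, 1.09 and 0.64 with AMI in the hippocampus. Its cortical values were −0.03, −0.10 and −0.37 with vehicle and −0.27, 0.08 and −0.26 with AMI, again with no overlap between tissues. The receptor and its adaptor were both highest on replicate 2 of the hippocampal AMI group.

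Csf1r, the receptor for colony stimulating factor 1 and interleukin 34, was at 1.58, 1.64 and 1.45 with vehicle and at 1.41, 1.61 and 1.75 with AMI in the hippocampus, and at 0.86, 0.89 and 0.76 with vehicle and at 0.68, 0.97 and 0.72 with AMI in the cortex. Its other probe, ILMN_1230485, did not show that gap between tissues and ranged from −0.32 to 0.06 in the hippocampus and from −0.34 to −0.14 in the cortex. Cx3cr1 ranged from 1.84 to 2.08 in the hippocampus and from 1.41 to 1.87 in the cortex, where vehicle replicates 2 and 3 were the lowest and the highest. P2ry12 stood at 0.53, −0.07 and −0.07 on the hippocampal vehicle arrays and at 0.03, 0.04 and 0.05 on the AMI arrays, so that 1 of the vehicle arrays lay above all others. Cortical P2ry12 lay between −0.55 and −0.25, below every hippocampal value.

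Cd68 was at 0.33, 0.61 and 0.41 with vehicle and at 0.52, 0.98 and 0.64 with AMI in the hippocampus. In the cortex it was at 0.28, 0.11 and 0.11 with vehicle and at 0.44, 0.35 and 0.32 with AMI, and there every AMI array lay above every vehicle array. Aif1, a calcium-binding and actin-bundling protein, was at 0.90, 0.93 and 0.55 with vehicle and at 0.53, 0.70 and 0.93 with AMI in the hippocampus, and at 0.49, 0.28 and −0.02 with vehicle and at 0.35, 0.46 and 0.38 with AMI in the cortex. Its second probe, ILMN_2804487, ranged from 0.23 to 0.72 in the hippocampus and from −0.09 to 0.42 in the cortex.

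**Figure D1:**
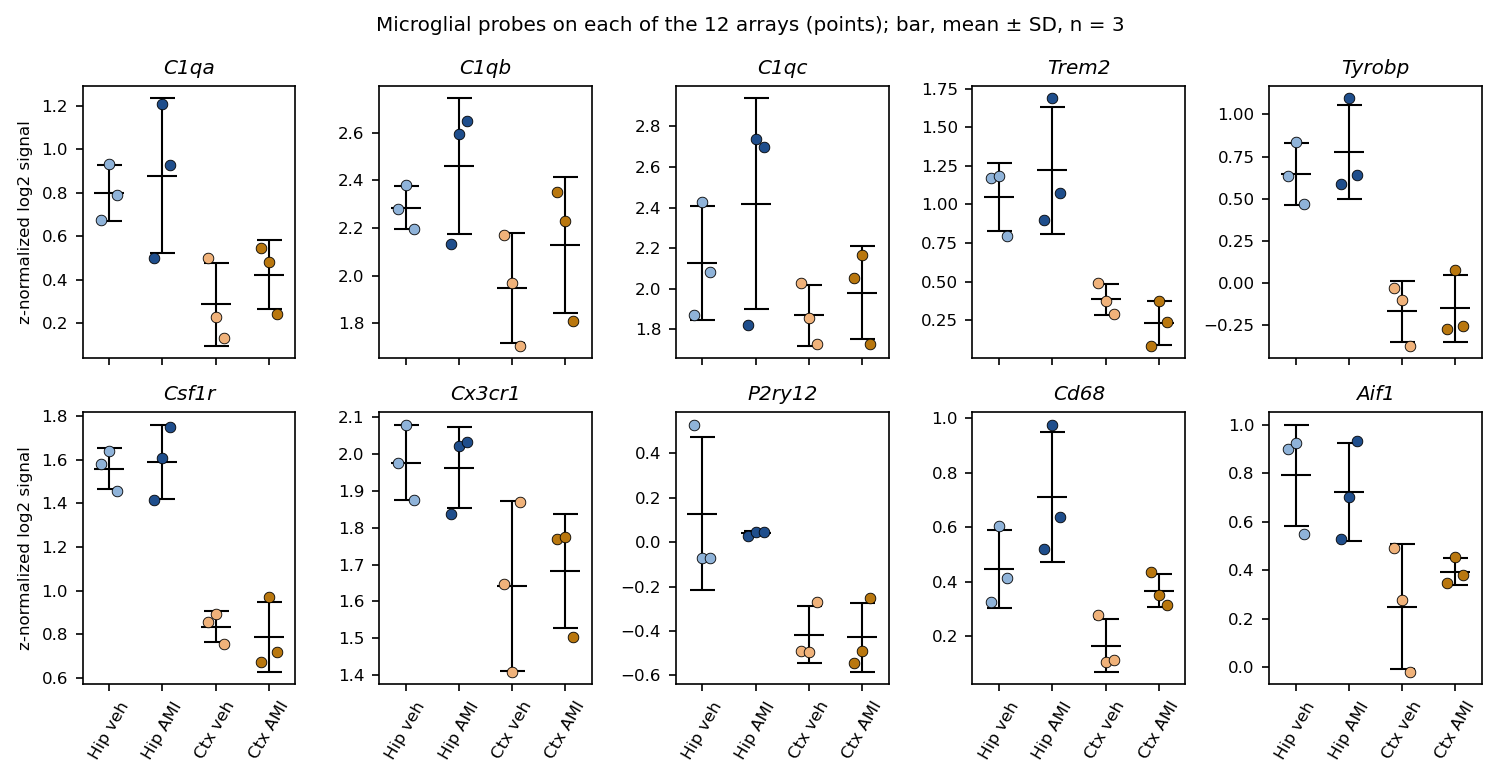
Z-normalized log2 signal (vertical axis) of the leading probe of each of the 10 microglial genes on each of the 12 arrays, by tissue (Hip, hippocampus; Ctx, cortex) and treatment (veh, vehicle; AMI, amitriptyline). Points are arrays and bars are the mean ± SD of 3 arrays. Trem2, Tyrobp, Csf1r, P2ry12 and Aif1 separate the tissues, and cortical Cd68 is the single panel in which AMI and vehicle arrays of a tissue do not overlap.

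AMI against vehicle asks whether 4 months of the drug moved the microglial transcripts. In the hippocampus 0 of the 12 tested probes reached an adjusted p of 0.05 by limma, where 0 of 13163 probes passed overall (0%), and 0 of 12 had an unadjusted p of 0.05 or less, against 2.35% of all probes. The methods' t-test also gave 0 of 12 at an unadjusted p of 0.05 or less. For 0 of the 12 did the treatment groups not overlap, against 7.89% of all probes. The C1q chains were at 0.08 ± 0.17 (log2 difference, AMI minus vehicle, ± SE) for C1qa, 0.17 ± 0.14 for C1qb and 0.29 ± 0.25 for C1qc, the last a 1.23-fold difference with a 95% interval from −0.27 to 0.86. Trem2 was at 0.17 ± 0.20 and Tyrobp at 0.13 ± 0.16. The receptors of resting microglia lay near 0, with Csf1r at 0.03 ± 0.11 (its other probe at −0.09 ± 0.11), Cx3cr1 at −0.01 ± 0.10 and P2ry12 at −0.09 ± 0.16. Cd68 had the smallest p of the 12 probes, with a difference of 0.26 ± 0.14, 1.20-fold, and an unadjusted p of 0.0891 by limma. Aif1 was at −0.07 ± 0.14 and −0.02 ± 0.15 by its 2 probes. By gene, 7 of 10 were higher and 3 lower with AMI, with a median of 0.104, beside 55% of all tested probes higher and a median of 0.0134. Because the RNA came from whole tissue, the number of microglia and the RNA of these genes per microglial cell cannot be told apart.

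The hippocampal differences leaned on single arrays. Without AMI replicate 1, C1qc was at 0.59, C1qb at 0.34 and Cd68 at 0.36, with unadjusted limma p-values of 0.00481, 0.00999 and 0.0279, where 7.29% of all probes were at 0.05 or less, and adjusted p-values of 0.664. In that fit the median of the 10 genes was 0.245. Without AMI replicate 2 that median was −0.0373, with C1qc at 0.135, C1qb at 0.105 and Cd68 at 0.131, and without AMI replicate 3 C1qc was at 0.154 and C1qb at 0.0776. C1qc was at 0.166 without vehicle replicate 1 and at 0.444 without vehicle replicate 2. With replicate 1 of both groups left out, an alternative chosen after seeing the data, C1qc was at 0.46 and C1qb at 0.33, with adjusted p-values of 0.703, and 0 probes passed. With the replicate number as a block, Cd68 and C1qc had unadjusted limma p-values of 0.0098 and 0.0422, where 8.08% of all probes were at 0.05 or less. Their adjusted p-values were 0.584 and 0.616.

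In the cortex 0 of the 12 probes reached an adjusted p of 0.05 by limma, with 0 of 12944 overall (0%), and 0 of 12 had an unadjusted p of 0.05 or less, against 6.28% of all probes. Cd68 was the single probe whose treatment groups did not overlap, 1 of 12 against 12.2% of all probes, so the count of 1 is near the background share. Its level was 0.37 ± 0.06 (SD, n = 3) with AMI and 0.17 ± 0.10 (SD, n = 3) with vehicle, a difference of 0.20 ± 0.10 (SE) or 1.15-fold, with a limma p of 0.0665 before adjustment and 0.784 after it. By the methods' t-test it was the 1 probe of 12 at 0.05 or less, with p-values of 0.0382 and 0.751, and without vehicle replicate 1 its limma p was 0.0481 (adjusted, 0.927). C1qa was at 0.14 ± 0.13, C1qb at 0.18 ± 0.17 and C1qc at 0.11 ± 0.14, and without any 1 cortical array these ran from 0.0582 to 0.242, from 0.0613 to 0.343 and from 0.0192 to 0.24. Trem2 had the lowest value, −0.15 ± 0.11, while Tyrobp was at 0.02 ± 0.14. The other receptors lay near 0, with Csf1r at −0.05 ± 0.11 and −0.06 ± 0.09 by its 2 probes, Cx3cr1 at 0.04 ± 0.14 and P2ry12 at −0.01 ± 0.12. The 2 Aif1 probes differed in sign, at 0.14 ± 0.13 and −0.06 ± 0.15. The median of the 10 genes was 0.0758, with 7 higher and 3 lower, beside a median of 0.0234 and 57.1% higher over all tested probes. The 95% intervals were wide next to these differences, reaching 0.86 for C1qc in the hippocampus and 0.57 for C1qb in the cortex.

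**Figure D2:**
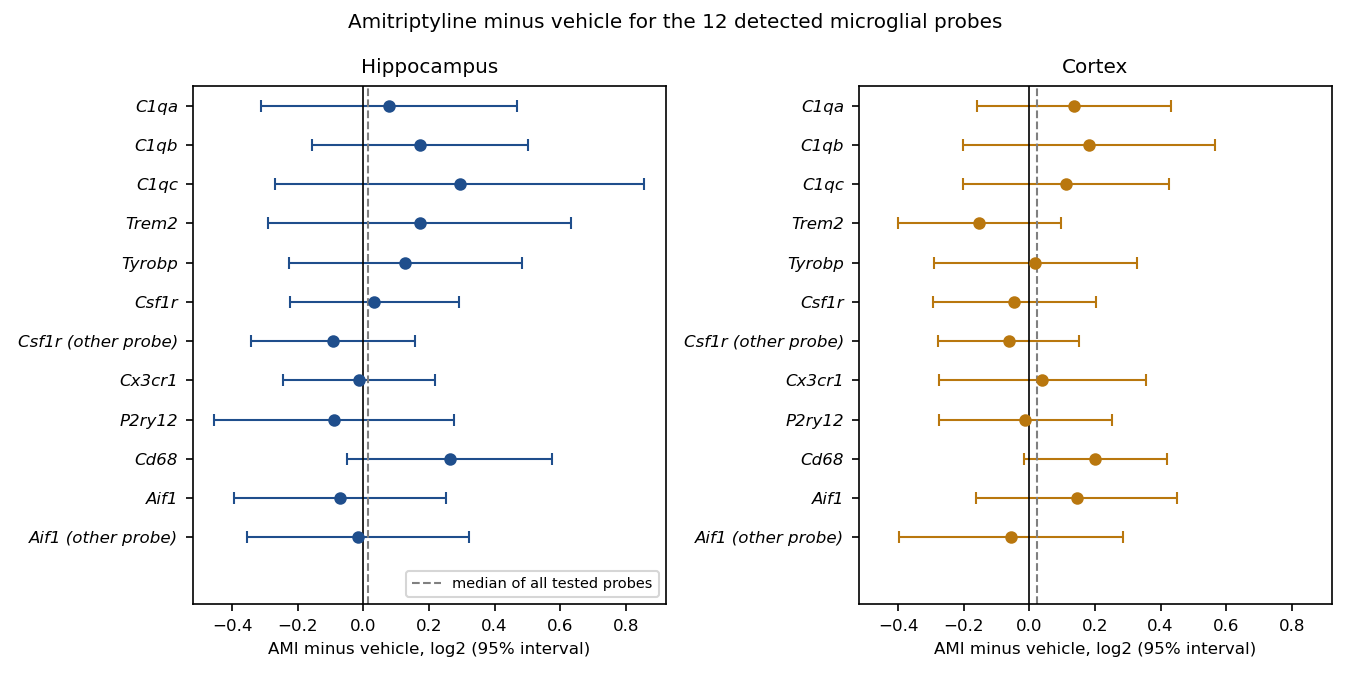
AMI minus vehicle difference on the log2 scale (horizontal axis) of the 12 detected microglial probes in the hippocampus and the cortex, with 95% intervals from limma over 3 arrays per group. The solid line marks 0 and the dashed line the median of all tested probes (hippocampus 0.0134, cortex 0.0234). Every interval includes 0.

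Whether AMI acted differently in the tissues was tested as the tissue by treatment interaction over all 12 arrays. By limma 0 of the 12 probes reached an adjusted p of 0.05, with 0 of 12430 overall (0%), and 0 of 12 had an unadjusted p of 0.05 or less, against 3.03% of all probes. Trem2 had the largest interaction, 0.32 ± 0.25 (log2, hippocampal minus cortical effect, ± SE), followed by Aif1 at −0.21 ± 0.21 and C1qc at 0.18 ± 0.31. Single arrays moved these values: Trem2 and C1qc were at 0.484 and 0.481 without hippocampal AMI replicate 1 and at 0.0908 and 0.0228 without hippocampal AMI replicate 2. Aif1 ran from −0.334 without hippocampal vehicle replicate 3 to −0.0792 without cortical vehicle replicate 3. The adjusted p-values of all 12 rounded to 1.

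Between the tissues, most of the microglial transcripts were higher in the hippocampus than in the cortex. By limma over all 12 arrays, with the treatments weighted equally, 10 of the 12 probes reached an adjusted p of 0.05 and all 10 were higher in the hippocampus, against 43.1% of all 13677 probes called and 24.4% called higher. By gene, 9 of 10 passed. The signalling pair led, with Tyrobp higher by 0.87 ± 0.11 (log2, ± SE), 1.83-fold, with an adjusted p of 5.11e-05, and Trem2 higher by 0.83 ± 0.12, 1.77-fold, with an adjusted p of 0.000203. Csf1r was higher by 0.76 ± 0.08, 1.70-fold, with an adjusted p of 9.67e-06, although its other probe was at 0.08 ± 0.07 with an adjusted p of 0.411 and so did not show the difference. P2ry12 was higher by 0.51 ± 0.10 and Cx3cr1 by 0.31 ± 0.09, with adjusted p-values of 0.0018 and 0.0128. Aif1 was higher by 0.43 ± 0.10 and 0.38 ± 0.11 by its 2 probes, and Cd68 by 0.31 ± 0.08.

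Among the C1q chains, C1qa was higher in the hippocampus by 0.48 ± 0.11, 1.40-fold, with an adjusted p of 0.00445 by limma. C1qb was higher by 0.33 ± 0.12 with an adjusted p of 0.0375, a call that rested on single arrays. It was lost without any 1 of 7 of them (hippocampal AMI replicates 2 and 3, hippocampal vehicle replicates 1 and 2, cortical AMI replicate 3 and cortical vehicle replicates 2 and 3), where C1qb was at 0.25 to 0.34 with adjusted p-values from 0.0563 to 0.0928. It was also lost with treatment and replicate number together as a block (adjusted p of 0.0676) and with no detection filter (0.0511). That block treats same-numbered hippocampal and cortical arrays of a treatment as the same mouse, which the labels do not state. C1qc, at 0.35 ± 0.16, did not pass, with an adjusted p of 0.0912. It passed without hippocampal AMI replicate 1, where it was at 0.50 with an adjusted p of 0.00376. With array weights all 12 probes passed, C1qc at 0.49 with an adjusted p of 0.00182 and the other Csf1r probe at 0.17 with an adjusted p of 0.0251. Whether the chains differ from the receptors in the size of the tissue difference was not tested.

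The 6 arrays of the hippocampus and the 6 of the cortex did not overlap for 5 of the 12 probes, those of Trem2, Tyrobp, Csf1r (its leading probe), P2ry12 and Aif1 (its leading probe), all higher in the hippocampus, against 22.3% of all probes and 13.5% higher. The median difference of the 10 genes was 0.459, beside 0.0262 over all tested probes. In the contrast of the vehicle groups alone 6 probes passed, against 25.1% of all probes, and in that of the AMI groups alone 5, against 27%. Both contrasts took the spread from all 12 arrays, and all 10 genes were higher in the hippocampus in each. All 10 genes were also higher in the hippocampus under quantile normalization, median centring and a background-corrected scale (neqc), with 10 probes called under each. Median centring gave a median of 0.652 over the 10 genes, but it also put the median of all probes at 0.187 and called 34% of all probes higher and 6.13% lower. After background correction Tyrobp was higher by 1.14 and P2ry12 by 0.76. The median signal of undetected probes, from 52.2 to 73.2 on the 12 arrays, is part of the uncorrected signals.

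**Figure D3:**
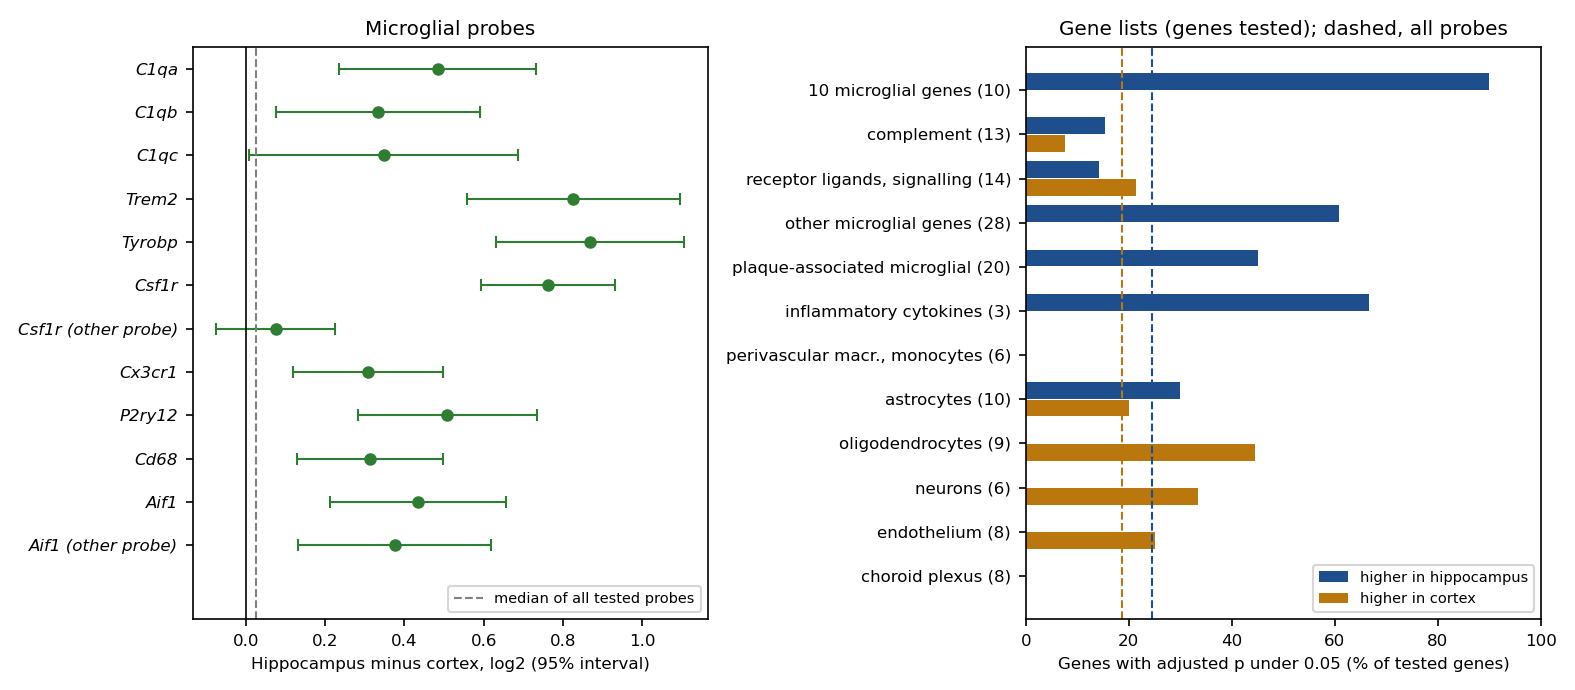
Left, hippocampus minus cortex difference on the log2 scale (horizontal axis) of the 12 microglial probes with 95% intervals over 12 arrays; the dashed line is the median of all tested probes, 0.0262. Right, share of tested genes of each list with an adjusted p under 0.05, higher in the hippocampus (blue) or in the cortex (orange), with the number of genes tested in brackets and the shares of all probes, 24.4% and 18.7%, as dashed lines; 9 of 10 microglial genes and 17 of 28 other microglial genes were called, all higher in the hippocampus.

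Between the tissues, other microglial genes were also called in the direction of the hippocampus. Over all probes 24.4% were called higher and 18.7% lower there. Of 28 tested genes of a list of homeostatic and pan-microglial markers without the 10, 17 were called higher in the hippocampus and 0 lower, with a median of 0.314. They included Siglech, a sialic acid binding lectin of microglia, at 0.81 (its other probe was at −0.02 with an adjusted p of 0.901), and Rgs10, a regulator of G protein signalling, at 0.74. The largest value of that list was for Golm1, a Golgi membrane protein, at 1.95 and 1.69 by 2 probes. Of 20 tested genes that microglia raise near plaques, 9 were called higher and 0 lower, with lipoprotein lipase (Lpl) at 1.73, the cathepsin Ctsz at 0.77 and 0.73 by 2 probes, and the cystatin Cst7 at 0.43. Lpl and Golm1 are also made by other brain cells, whose part in these values was not tested. The defining markers of microglia were present throughout, with all 10 genes detected on all arrays.

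The counts for other cell types depended on the scaling, as did the background. Over all probes 24.4% were called higher and 18.7% lower with z normalization, and 34% and 6.13% with median centring. With z normalization, 0 of 8 endothelial genes were called higher and 2 lower in the hippocampus, 0 of 9 oligodendrocyte genes higher and 4 lower, and 0 of 6 neuronal genes higher and 2 lower. With median centring these became 0 and 0, 3 and 0, and 4 and 1. The neurofilament gene Nefm was at −0.81, and a second probe of the myelin gene Mbp, at 0.37, ran against the oligodendrocyte list. The 10 astrocyte genes were split, 3 higher and 2 lower, and 6 and 0 with median centring. Of the higher ones, Gfap was at 1.77, the glutamine synthetase Glul at 0.53 and S100b at 0.51, while the glutamate transporter Slc1a2 was at −0.29, a sign that median centring turned to 0.043. Over the 10 members and the other microglial and plaque-associated lists, 9, 17 and 9 genes were called higher with z normalization and 9, 20 and 13 with median centring, with 0 called lower under either; quantile normalization and neqc each called 1 other microglial gene lower. Of 6 tested genes of perivascular macrophages and monocytes, 0 were called in either direction by limma, with 0 higher and 1 lower at an unadjusted p of 0.05 or less. Choroid plexus genes gave 0 calls of 8, with 1 lower at that p. The mean level of the oligodendrocyte list ran from 3.38 to 4.17 in the hippocampus and from 3.89 to 4.40 in the cortex. The part of the makeup of the dissected tissue in the microglial difference was not tested.

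In the pathways around the members, genes were called in both directions between tissues, beside 24.4% of all probes called higher and 18.7% lower. Of 37 complement genes listed beyond C1q, 31 were on the array and 13 were tested, with 2 called higher in the hippocampus, C4b at 0.62 and C3 at 0.33, and 1 lower, C2 at −0.56, so that 3 of 13 stood beside 43.1% of all probes. The complement receptor genes C3ar1, C5ar1, Itgam and Itgb2 were not detected on enough arrays to be tested. Of 14 ligands and signalling partners of the member receptors, 2 were called higher, the phospholipase Plcg2, which acts downstream of Trem2, at 0.56 and the purinergic receptor P2ry6 at 0.39. The other 3 calls were lower: Apoe, a ligand of Trem2, at −0.64, the Cx3cr1 ligand Cx3cl1 at −0.57 and P2rx4 at −0.30, whose other probe was at −0.07 and did not pass. With median centring, Apoe was at −0.041 with an adjusted p of 0.866, and 0 genes of either list were called lower. Of 3 cytokine genes tested between tissues, 2 were called higher, among them interleukin 18 (Il18) at 0.60. The 3 complement genes, P2ry6, Cx3cl1 and P2rx4 are named as the calls of small lists and were chosen after their values were seen.

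With AMI, 0 genes of these lists passed an adjusted p of 0.05 by limma in either tissue. Over all tested probes of the hippocampus, 55% were higher with AMI and 2.35% had an unadjusted limma p of 0.05 or less. Of the 28 other microglial genes tested in the hippocampus, 23 were higher and 5 lower, with a median of 0.103 and 2 at an unadjusted p of 0.05 or less, while 9 of 20 plaque-associated genes were higher, with 1 at that p. Complement genes gave 5 higher and 7 lower, and ligands and signalling partners 6 higher and 8 lower, with 0 at that p in both lists. Treatment groups did not overlap for 2 of the 28 other microglial genes, both higher with AMI, and for 2 of the 20 plaque-associated genes, 1 higher and 1 lower, beside 7.89% of all probes. Of these, Tlr2, a sensor of bacterial lipoproteins, was at 0.29 and cholesterol 25-hydroxylase (Ch25h) at 0.26, with limma p-values of 0.0113 and 0.0165 before adjustment. The others, named after their values were seen, were Rgs10 at 0.21 and the tetraspanin Cd63 at −0.26, with p-values of 0.0616 and 0.0924. The chemokine Cxcl10, 1 of 2 cytokine genes tested, was at 0.44 with a p of 0.00516 and groups that did not overlap, and the adjusted p-values of all 5 rounded to 1. In the same arrays 0 of 9 oligodendrocyte genes were higher with AMI, with a median of −0.46 and 4 at an unadjusted p of 0.05 or less, among them Cnp at −0.57 (its other probe was at −0.30), Mog at −0.56 (its other probe was at −0.64) and Ugt8a at −0.47. All 7 choroid plexus genes were lower, with a median of −0.794, Enpp2 at −1.13 and a list mean that ran from 1.42 to 4.02 on the vehicle arrays and from 1.13 to 1.45 on the AMI arrays. A single vehicle array made most of that range, since the median of the 3 vehicle arrays was 1.56, and Enpp2 was at −0.588 without vehicle replicate 3. Of 8 endothelial genes 6 were higher, with 1 probe of Pecam1 at 0.27. The part of these cell types in the hippocampal values of the microglial genes was not tested.

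In the cortex the 27 tested microglial genes beyond the 10 were split, 15 higher and 12 lower with AMI, with a median of 0.0096. Over all tested probes of the cortex, 57.1% were higher. Osteopontin (Spp1), of the plaque-associated list, was at 0.48, the lysozyme gene Lyzs at 0.27 and Ly6c1, of the monocyte list, at 0.32, while the selectin ligand Selplg was at −0.34 and the Toll-like receptor chaperone Unc93b1 at −0.27 by 1 probe and 0.006 by its other. Their adjusted p-values by limma were 0.776 for Unc93b1 and 0.756 for the other 4. Inflammatory cytokines were mostly out of reach: of 12 on the array, 2 were tested in each tissue, and Il1a, Il1b, Il6 and Tnf were not detected on enough arrays of either.

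Across the 12 arrays, the 3 C1q chains varied together. For each probe the deviations from the mean of its own group were correlated, so that tissue and treatment took no part, and these values of Pearson's r describe 12 arrays that share each array's preparation. The r was 0.92 between C1qa and C1qc, 0.85 between C1qa and C1qb and 0.83 between C1qb and C1qc. Trem2 and Tyrobp had an r of 0.89, and Cd68 and C1qa one of 0.90. With the mean profile of the 3 chains, Cd68 had an r of 0.79, Tyrobp 0.66, Csf1r 0.63, Aif1 0.60, Trem2 0.57 and Cx3cr1 0.43, while P2ry12 ran the other way at −0.44. The median of these 7 genes was 0.598, beside 0.293 over all 12430 probes.

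That shared profile was not confined to microglial genes. Of all probes, 32.9% had an r over 0.5 with it, and the 10 closest were those of Gsto1 (0.98), Naca (0.97), Rdh14 (0.97), Arf6 (0.97), Ccdc53 (0.96), Surf1 (0.96), Pdk3 (0.96), 2510010F15Rik (0.96), Azi2 (0.96) and Zcchc12 (0.96), over 12 arrays. The C1q profile also went with the arrays themselves: its r was 0.87 with the SD of the log2 signals of the array and 0.851 with the median log2 signal, and −0.003 with the share of probes detected. The lowest C1q deviation, −0.435, belonged to hippocampal AMI replicate 1, whose signals had the narrowest spread of that tissue. Under quantile normalization the median r of the 7 genes was 0.322 and without hippocampal AMI replicate 1 it was 0.357, and in the former Cd68 was at 0.45 and P2ry12 at −0.52. Median centring gave 0.818. The median over all probes, 0.293, was taken with z normalization of all 12 arrays and is no background for these other settings. The part of the array's spread in the likeness of the genes was not tested.

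**Figure D4:**
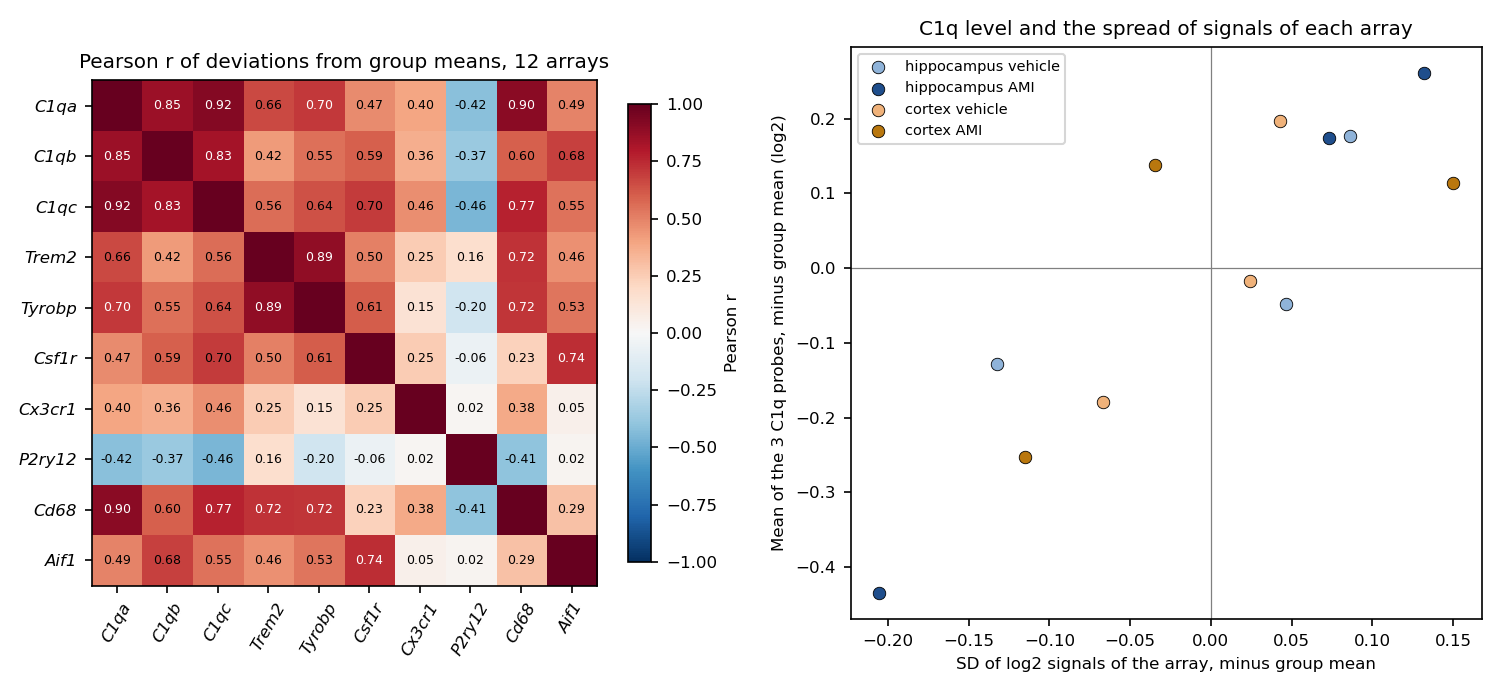
Left, Pearson's r (colour scale, values printed) between the deviations of the 10 microglial genes from their group means over 12 arrays; the C1q chains form a block at 0.83 to 0.92 and P2ry12 is negative against them. Right, deviation of the mean of the 3 C1q probes (vertical axis, log2) against the deviation of the SD of each array's log2 signals (horizontal axis), both from the group mean, by group; the r over the 12 arrays was 0.87.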

How the data were processed

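According to the study's methods, RNA was isolated and made into cDNA, and the labelled product was hybridized to mouse bead arrays. The authors deposited, for each probe and array, the mean bead signal as a linear intensity and a detection p-value, without normalization or background subtraction, in a table per tissue. The submitters' processing notes name BeadStudio 3.4 and GenomeStudio 1.1.1. The array annotation names no genome build.

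All values were computed from these intensities. As in the study's methods, each array was z-normalized on the log2 scale, and the z values were put back on a log2 scale with the average SD of all arrays. A probe entered a test when its detection p was at most 0.05 on 3 or more of 6 arrays of a tissue. Tests used limma 3.58.1 (lmFit, then eBayes) under R 4.3.3, two-sided, with Benjamini-Hochberg adjustment across all tested probes. The test was checked on simulated data with independent noise and with shifts larger than any AMI difference of the members. That check does not show how the test performs at the smaller differences reported here. The smallest p that an exact permutation of 3 against 3 arrays allows is 0.1, so single probes were tested in the limma fit across all probes. The methods' t-test of each probe alone was an alternative. Arrays were compared with each other and none were identical. Python 3.11.15 with pandas 2.3.3 and matplotlib 3.10.9 drew tables and figures.

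Arrays were grouped by their labels. The p-values measure the spread between samples, which may be technical. Deviations of same-numbered AMI and vehicle arrays of the hippocampus correlated at 0.619, 0.3 and 0.3. Differently numbered ones ran from −0.481 to 0.286, so that only replicate 1 stood well apart. The 10 genes and the marker lists were chosen with earlier results of these data known. Genes outside the 10 are named, per list and comparison, as up to 5 probes of largest difference whose groups do not overlap and whose unadjusted p is at most 0.05, and the 10 probes closest to the C1q profile; others are said to be chosen later, and 1 result that the rule names is not reported here. Alternatives were other scalings, detection filters, variance models, weights, blocks, the methods' test, the study's z ratio of 1.5, and leaving out arrays (replicate 1 of both hippocampal groups was chosen after seeing the data).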

Additional observations from a re-analysis of the deposited data

How the results depend on the processing

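The counts of microglial probes with an adjusted p under 0.05 for AMI stayed at 0 in both tissues and for the interaction under every alternative run. The z ratio rule, run in each tissue with the main limma p of 0.05 or less, also gave 0. Cortical Cd68 had a z ratio of 1.58 and a methods' t-test p of 0.0382 (adjusted, 0.751). Hippocampal Cd68 and C1qc had z ratios of 2.38 and 2.66. With the replicate block their unadjusted limma p-values were 0.0098 and 0.0422 (adjusted, 0.584 and 0.616). These adjusted values lie above the study's limit for the false discovery rate. Unadjusted p-values of 0.05 or less were reached by at most 3 probes, in the hippocampus without AMI replicate 1 and in the cortex with array weights, where 22.8% of all probes reached it. Between tissues, called probes numbered 6 for the vehicle groups and 5 for the AMI groups, contrasts of 3 against 3 arrays with the spread taken from all 12. They numbered 12 with array weights and 9 to 11 without any one array. The median of the 10 genes between tissues was 0.652 with median centring, where that of all probes was 0.187, and 0.406 to 0.504 without any one array. Without any one array the median AMI difference ran from −0.0373 to 0.245 in the hippocampus and from 0.0186 to 0.14 in the cortex (hippocampus with median centring, 0.169), the interaction median from −0.0738 to 0.157, and the median r with C1q from 0.357 to 0.675.

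With the replicate number as a block, the hippocampal and cortical AMI counts were 0. For the interaction and the tissues the block was treatment with replicate number, as if same-numbered arrays of both tissues came from the same mouse. There the interaction count was 0 and the tissue count 9, since C1qb had an adjusted p of 0.0676 by limma. Neither block changed another call of a member probe. In the cortex same-numbered AMI and vehicle arrays correlated at −0.06, 0.332 and 0.338, beside −0.423 to 0.274 for differently numbered ones. Between tissues, same-numbered arrays of a treatment ran from −0.347 to 0.086, and differently numbered ones reached 0.344.

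Some uncalled AMI differences near 0 changed sign, and the cause was not tested. In the hippocampus, Cx3cr1 was at 0.073 and Aif1 (ILMN_2804487) at 0.044 with median centring; Aif1 (ILMN_2804487) was at 0.12 and P2ry12 at 0.043 with array weights. With replicate 1 of both groups left out, Aif1 was at 0.080 (ILMN_1212938) and 0.22 (ILMN_2804487), Cx3cr1 at 0.050 and P2ry12 at 0.12. In the cortex, Tyrobp was at −0.051 with quantile normalization, −0.077 with neqc and −0.14 with array weights, where Aif1 (ILMN_1212938) was at −0.0028. Between tissues, Slc1a2 was at 0.043 with median centring. Without any one hippocampal array, Aif1 ran from −0.19 to 0.026 (ILMN_1212938) and from −0.10 to 0.14 (ILMN_2804487), Cx3cr1 from −0.064 to 0.051, Csf1r (ILMN_2710819) from −0.048 to 0.12, C1qa from −0.085 to 0.27, P2ry12 from −0.19 to 0.11, Tyrobp from −0.032 to 0.22 and Trem2 from −0.062 to 0.33. Without any one cortical array, Cx3cr1 ran from −0.077 to 0.15, Csf1r (ILMN_2710819) from −0.14 to 0.011, Aif1 (ILMN_2804487) from −0.20 to 0.056, P2ry12 from −0.10 to 0.062 and Tyrobp from −0.096 to 0.087.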
